A study of Homo sapiens with 6 samples.

Results

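The proteasome genes of THP1-derived macrophages were examined after the cells had been kept in tumor cell medium. Rows of the deposited gene tables were taken by symbol, as names that open with PSMA, PSMB, PSMC, PSMD, PSME, PSMF or PSMG and a digit, with 1 such gene not analysed here. The rule gave 47 of 17513 listed genes, of which 45 encode subunits, activators, an inhibitor or assembly chaperones of the proteasome. The other 2, PSMC3IP and PSME3IP1, are named for partners of proteasome proteins and were kept apart. The macrophages were made from the human monocytic leukemia cells THP1 and spent 48 h in the conditioned medium of KYSE150 cells, which derive from a squamous carcinoma of the esophagus. In 1 group the KYSE150 cells carried shSPP1#2, a hairpin against SPP1 (osteopontin), and in the other they carried shNC, the hairpin that serves as the control; each group has 3 libraries of polyadenylated RNA. A single hairpin, a single tumor line and a leukemia-derived macrophage model limit what the groups stand for. By the design text the RNA is that of the receiving macrophages, so the knockdown in the tumor cells could not be checked in these libraries.

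The proteasome is the protease that degrades proteins tagged with ubiquitin. Its core particle, the 20S, stacks rings of alpha subunits around rings of beta subunits, and the catalytic sites sit on PSMB5, PSMB6 and PSMB7. The regulatory particle, the 19S, has a base with ATPases that unfold the substrate and a lid that removes the ubiquitin chain. In blood cells and after interferon, immunoproteasome subunits replace the catalytic ones and favor peptides that class I MHC molecules present, a function of macrophages as antigen-presenting cells. The transcription factor NFE2L1 raises proteasome genes when proteasome activity is short.

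Labels and cells had to be reconciled first. The sample labels name KYSE150, whereas the series design text names the macrophages. Of 16 monocyte and macrophage markers, 15 reached 1 FPKM (fragments per length of transcript and library size, scaled by the authors) in all 6 libraries, and of 11 listed squamous epithelial markers 0 did. That level was also reached in all 6 libraries by 3 of 3 listed T and NK cell markers and 2 of 6 fibroblast markers. The summed macrophage markers ran from 3054 to 3143 FPKM in shSPP1#2 medium and from 3126 to 3358 FPKM in shNC medium, and the summed squamous markers from 1.86 to 2.55 FPKM and from 1.97 to 2.52 FPKM in the same groups. T and NK cell markers summed to 223 to 248 FPKM in shSPP1#2 medium and 241 to 284 FPKM in shNC medium, nearly all of it GNLY, and fibroblast markers, mostly COL1A1 and PDGFRB, to 20.9 to 22.9 FPKM and 20.9 to 23.9 FPKM in the same groups. The most abundant macrophage markers were LAPTM5 and CTSB, and among the squamous markers KRT4 had at most 0.98 FPKM. None of the listed markers was at 0 in all 6 libraries, and edgeR called 0 of those tested. The part of these markers in the results was not tested. Libraries held 18113591 to 20626346 estimated counts, and within a group every pair of libraries differed beyond counting error (chi-square per degree of freedom 3.09 to 4.16), so each was counted as a library of its own. shNC replicate 2, the shallowest library, stood apart on the first principal component of all tested genes (22.5 against -10.5 to 1.63; 25.2% of the variance), and shSPP1#2 replicate 2 on the second (-20.3 against -0.64 to 13.8; 22.2%). Whether the replicates were cultured separately is not stated in the labels, and p-values refer to the spread among these libraries, which may be technical.

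The 45 proteasome genes are spread over 17 chromosomes. In GENCODE v29 (GRCh38) the immunoproteasome gene PSMB8 lies at chr6:32840717-32844703 and its constitutive counterpart PSMB5 at chr14:23016543-23035230, both on the minus strand. All 45 were expressed and passed the filter on low counts, with at least 10 estimated counts in each library. Mean levels over the 6 libraries ran from 2.19 FPKM for PSMG4, an assembly chaperone, to 194 FPKM for PSMA6, a subunit of the alpha ring. The core beta ring had the highest median, 107 FPKM. It was 95.9 FPKM for the 2 immunoproteasome genes, 81.6 FPKM for the base subunits that are not ATPases and 66.4 FPKM for the activators. The alpha ring had 60.8 FPKM, the ATPases 49.3 FPKM, the lid 46.9 FPKM and the assembly chaperones 10.7 FPKM. Levels within a class were far from equal, although the rings hold their subunits in equal number. In the beta ring PSMB4, at 151 FPKM, was 12.6-fold above PSMB2, at 12.0 FPKM, and in the alpha ring PSMA6 was 3.90-fold above PSMA3, at 49.6 FPKM. FPKM rests on the transcript length the authors used, so such ratios between genes depend on it. In estimated counts, which are not divided by length, the contrast within the beta ring was smaller. PSMB4 had 2405 to 2736 counts per library and PSMB2 906 to 1117, while PSMA6 had 3524 to 4073 and PSMA3 795 to 977.

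**Figure D1:**
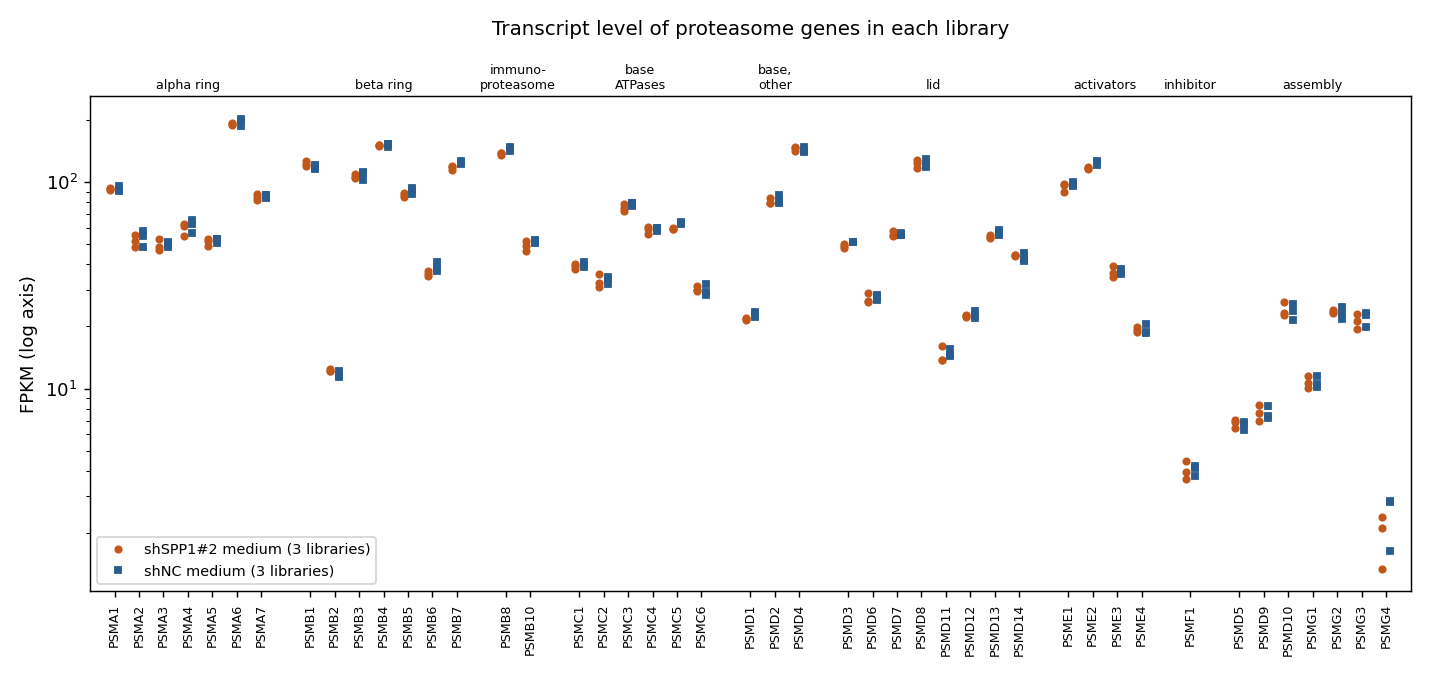
Level of the 45 proteasome genes in each library, in FPKM on a log axis, by class. Circles are the 3 shSPP1#2 libraries and squares the 3 shNC libraries. The libraries of most genes lie close together, but those of PSMG4 run from 1.34 to 2.84 FPKM. Genes range from 2.19 FPKM (PSMG4) to 194 FPKM (PSMA6) on average.

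Promoter sequences from RefSeq are shown where interferon or NFE2L1 elements could be read beside the values. A promoter window, the 250 bases before a transcript start on build GRCh38.p14, was listed for 39 of the 45 genes, the others being PSMA7, PSMB1, PSMB6, PSMB7, PSMD4 and PSMG3. The antioxidant response element core TGACNNNGC, the type of site NFE2L1 binds, occurred on either strand in 12 of the 39 genes (30.8%), against 13.2% of 27305 genes with a window and 15.6% of the 11055 among them that were tested. The 12 were PSMA4, PSMB3, PSMC5, PSMD3, PSMD12, PSME1, PSME2, PSME4, PSMD5, PSMD9, PSMG1 and PSMG2. The interferon response core, GAAA repeated after any 2 bases, occurred in 5 genes (12.8%), PSMA4, PSMB4, PSMB10, PSME2 and PSMG4, against 3.71% of all genes and 3.46% of tested ones. The palindrome TTCNNNGAA occurred in 6 (15.4%), PSMA2, PSMB5, PSMB8, PSMC4, PSMD3 and PSME3, against 8.09% of all genes and 7.63% of tested ones. CCAAT occurred in 17 (43.6%), against 37.0% of all genes and 41.3% of tested ones. The lid gene PSMD3 and the beta ring gene PSMB3 are shown for the first motif, with the whole window. The immunoproteasome gene PSMB10 and the activator gene PSME2 are shown for the second, with the last 30 bases before the start. The antioxidant core of PSME2 lies outside the stretch shown. Capitals mark matches to the antioxidant, interferon and palindrome motifs, none of which overlaps another in these 4 sequences. The window of PSMD3 is chr17:39980557-39980806 on the plus strand and that of PSMB3 chr17:38752491-38752740 on the plus strand. The stretch of PSMB10 is chr16:67936851-67936880 on the minus strand and that of PSME2 chr14:24146611-24146640 on the minus strand.
PSMD3: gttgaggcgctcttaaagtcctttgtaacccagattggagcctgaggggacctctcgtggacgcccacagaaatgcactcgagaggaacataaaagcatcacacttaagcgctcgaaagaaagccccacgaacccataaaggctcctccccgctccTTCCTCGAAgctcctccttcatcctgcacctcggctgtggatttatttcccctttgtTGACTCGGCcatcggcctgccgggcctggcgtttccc
PSMB3: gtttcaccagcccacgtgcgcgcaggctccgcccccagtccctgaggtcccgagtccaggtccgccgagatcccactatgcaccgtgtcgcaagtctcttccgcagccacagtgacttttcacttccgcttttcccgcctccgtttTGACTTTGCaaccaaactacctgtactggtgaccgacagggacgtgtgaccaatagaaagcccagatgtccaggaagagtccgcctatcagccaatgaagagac
PSMB10: ggtaaaggcGAAAGCGAAAgcaggaagtac
PSME2: gtGAAAGCGAAAgcccgggcgactagccgg
PSMB10 and PSME2 carry the same 10 letters, 21 to 12 bases and 28 to 19 bases before the start. A match is a description of these letters and not a mapped binding site.

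Proteasome genes differed little between the 2 media. With edgeR, 0 of the 45 genes had an adjusted p below 0.05, where 0% of all 13555 tested genes did. At an unadjusted p below 0.05 the edgeR test gave 1 of 45 (2.22%), a lower one, against 3.39% of all tested genes lower and 6.85% in either direction. That count moved with the setting. It was 0 with total-count scaling, where 901 of 13555 genes passed, and 4 with upper-quartile scaling, where 942 did. With limma on log2(FPKM + 1) it was 5, where 879 did, and with the replicate block 4, where 1461 did. With single libraries left out it ran from 0 to 4, the 4 without shSPP1#2 replicate 2, where 1228 of 13727 genes passed. DESeq2 called 0 of the 12 members for which it gave an adjusted p, against 1.32% of the 1891 genes it adjusted, and 0 of 45 had an unadjusted p below 0.05 there. The median log2 fold change, shSPP1#2 minus shNC, was -0.021 over the 45 genes and -0.0003 over all tested genes, with 34 of 45 (75.6%) below 0 against 50.1% of all tested genes. The extremes were -0.16 for PSMG4, a value that was -0.0022 without shNC replicate 3, and 0.054 for PSMB1. The 95% interval lay within 0.25 of 0 for 43 of 45 genes (95.6%), against 70.5% of 10635 genes with a mean log2 CPM (counts scaled to library size) of at least 2. PSMB6 and PSMG4 were the exceptions. Over the 6 libraries the median coefficient of variation of a member was 3.71%, against 5.69% for those 10635 genes. The median standard error was 0.048 for members and 0.065 for those genes, and genes matched for level were not compared. Summed over the 45 genes the level was 2713, 2713 and 2690 FPKM in shSPP1#2 replicates 1, 2 and 3, and 2786, 2777 and 2721 FPKM in the shNC replicates. The 3 sums of shSPP1#2 medium lay below the 3 of shNC medium, with means of 2705 ± 13.5 and 2761 ± 35.4 FPKM (SD, n = 3 each). In bulk RNA fewer cells of a kind and less RNA per cell cannot be told apart.

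**Figure D2:**
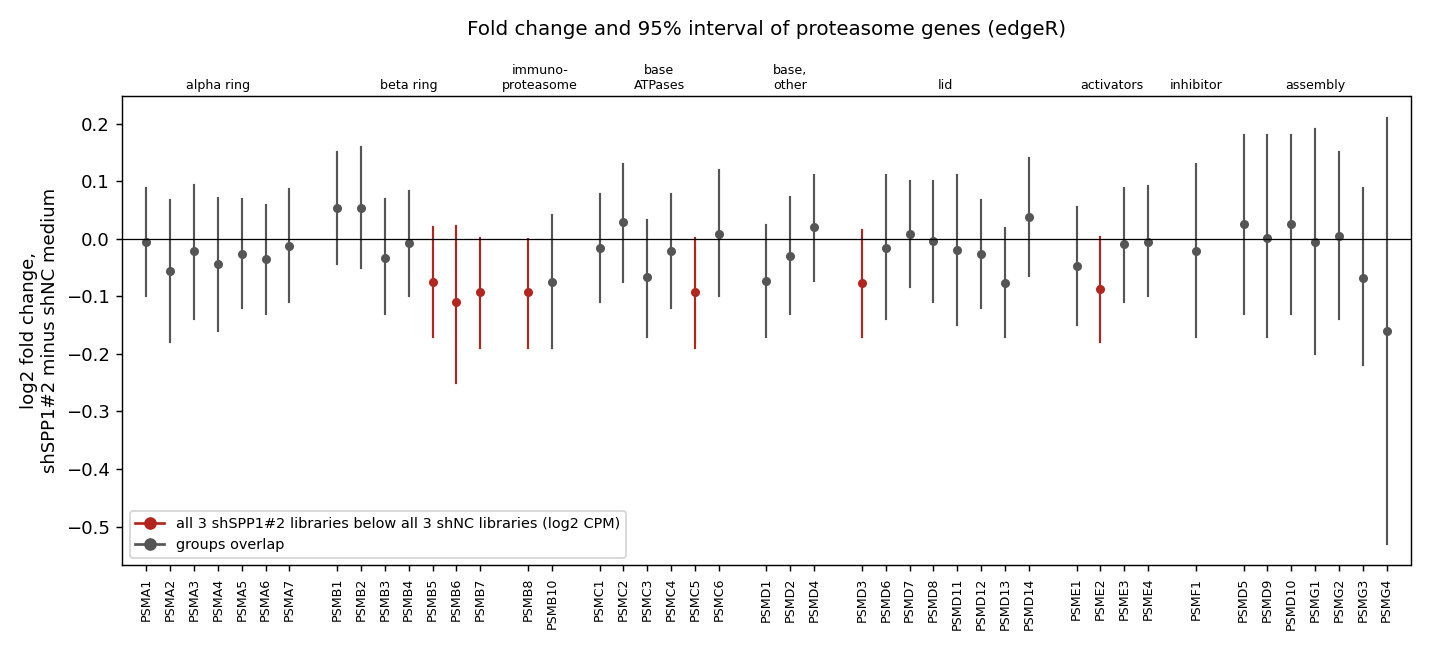
Log2 fold change with its 95% interval from edgeR for the 45 proteasome genes, shSPP1#2 minus shNC medium, by class; red marks genes whose 3 shSPP1#2 libraries lay below the 3 shNC libraries in log2 CPM. Every point lies between -0.16 (PSMG4) and 0.054 (PSMB1), and PSMB8 is the gene whose interval ends just below 0.

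In 7 of the 45 genes (15.6%) the 3 shSPP1#2 libraries lay below the 3 shNC libraries in log2 CPM, and in 0 they lay above; over all tested genes 5.50% lay below and 5.63% above. The 7 were the catalytic PSMB5, PSMB6 and PSMB7, the immunoproteasome subunit PSMB8, the ATPase PSMC5, the lid subunit PSMD3 and the activator PSME2. Their log2 fold changes ran from -0.11 to -0.076. The count was 3 (PSMB8, PSMD3 and PSME2; 6.67%, against 5.44% of all tested genes) with a correction of each library for transcript length and GC content, and 6 in FPKM (13.3%, against 5.05% of all tested genes), where PSMD1 took the place of PSMB5 and PSMB6. Without shNC replicate 2 it was 7 (15.6%, against 9.33% of all tested genes). It was 11 (24.4%, against 12.7%) without shSPP1#2 replicate 2 and 12 (26.7%, against 11.6%) without shNC replicate 3.

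**Figure D3:**
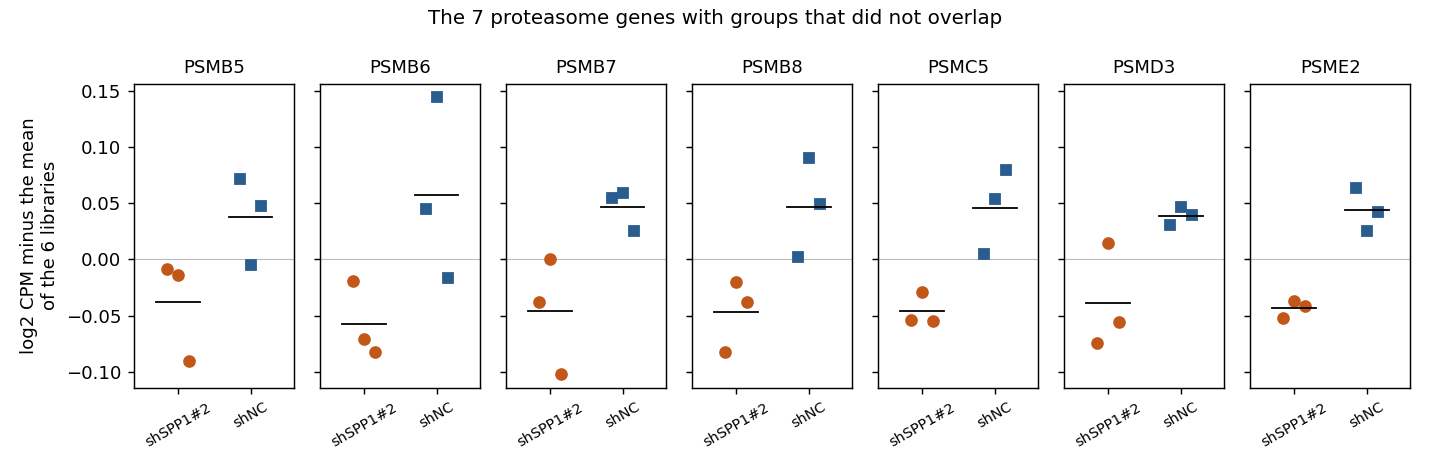
Log2 CPM minus the mean of the 6 libraries for the 7 genes whose groups did not overlap, shSPP1#2 medium (circles) left of shNC medium (squares), with lines at the group means. The distance between the groups is at its narrowest for PSMB6 and PSMB5, whose log2 CPM of 4.85 and 6.46 in shSPP1#2 replicate 1 lay beside 4.85 in shNC replicate 3 and 6.47 in shNC replicate 2.

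The alpha ring, which gates entry to the core, summed to 581, 572 and 591 FPKM in shSPP1#2 medium and 605, 601 and 572 FPKM in shNC medium. The sums overlapped, since shNC replicate 3 was as low as shSPP1#2 replicate 2. All 7 alpha genes had a log2 fold change below 0, from -0.056 for PSMA2 to -0.0065 for PSMA1, with a median of -0.026, and their groups overlapped in each case. PSMA6, the most abundant, measured 191, 189 and 193 FPKM in shSPP1#2 medium and 203, 198 and 188 FPKM in shNC medium. Its log2 fold change was -0.035 (95% interval -0.13 to 0.058, edgeR adjusted p = 0.927), with the lowest library in shNC medium, and -0.065 with the length and GC correction. PSMA2 measured 52.1, 48.6 and 55.3 FPKM in shSPP1#2 medium and 57.9, 55.0 and 48.7 FPKM in shNC medium, a log2 fold change of -0.056 (-0.18 to 0.068, edgeR adjusted p = 0.905). For PSMA4 it was -0.044 (-0.16 to 0.071) and for PSMA3 -0.021 (-0.14 to 0.094). PSMA1, PSMA5 and PSMA7 lay between -0.026 and -0.0065.

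Of the 7 beta ring genes 0 were called by edgeR, and the log2 fold changes of the 3 catalytic ones had intervals that included 0. PSMB5, which cuts after hydrophobic residues, measured 88.6, 87.2 and 84.6 FPKM in shSPP1#2 medium and 94.0, 87.5 and 91.8 FPKM in shNC medium. In FPKM the groups overlapped, by shSPP1#2 replicate 1 over shNC replicate 2. Its log2 fold change was -0.076 (-0.17 to 0.020, edgeR adjusted p = 0.803). PSMB6, which cuts after acidic residues, measured 37.13, 35.3 and 35.9 FPKM in shSPP1#2 medium and 38.9, 41.0 and 37.10 FPKM in shNC medium. The highest shSPP1#2 library lay just above the lowest shNC library, and the log2 fold change was -0.11 (-0.25 to 0.022, edgeR adjusted p = 0.788). PSMB7, which cuts after basic residues, measured 118, 119.6 and 114 FPKM in shSPP1#2 medium and 126, 124.5 and 123 FPKM in shNC medium. Here the groups did not overlap in either unit, with a log2 fold change of -0.092 (-0.19 to 0.0012, edgeR adjusted p = 0.732). Summed, the 3 catalytic genes reached 244, 242 and 235 FPKM in shSPP1#2 medium and 259, 253 and 252 FPKM in shNC medium. With the length and GC correction the log2 fold changes were nearer 0, at -0.034 for PSMB5, -0.054 for PSMB6 and -0.041 for PSMB7.

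The other beta genes carry no active site. The log2 fold change was 0.054 (-0.044 to 0.15) for PSMB1 and 0.053 (-0.051 to 0.16, edgeR adjusted p = 0.894) for PSMB2, the highest 2 of the 45. PSMB4 measured 151, 152 and 150.1 FPKM in shSPP1#2 medium and 148, 153 and 153 FPKM in shNC medium. Its groups overlapped, and its coefficient of variation over the 6 libraries was 1.12%. For PSMB3, whose promoter is printed above, the value was -0.033 (-0.13 to 0.069). The median of the 7 beta genes was -0.033; it was -0.0011 without shNC replicate 2, -0.070 without shNC replicate 3 and 0.0090 with the length and GC correction.

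Immunoproteasome subunits were abundant in both media. PSMB8, which takes the place of PSMB5, measured 135, 138 and 139 FPKM in shSPP1#2 medium and 142, 148 and 146 FPKM in shNC medium. The 3 shSPP1#2 libraries lay below the 3 shNC libraries. Its log2 fold change was -0.093 (-0.19 to -0.0013, edgeR adjusted p = 0.724), and it was the member with an unadjusted p below 0.05. PSMB10, which takes the place of PSMB7 and carries the interferon core printed above, measured 49.2, 51.7 and 46.7 FPKM in shSPP1#2 medium and 50.9, 51.8 and 52.2 FPKM in shNC medium. shSPP1#2 replicate 2 lay within the shNC range, and the log2 fold change was -0.076 (-0.19 to 0.041, edgeR adjusted p = 0.867), or -0.030 with the length and GC correction. Exons of other genes cover 20.6% of the exonic bases of PSMB8 and 34.8% of those of PSMB10 in GENCODE v29, on the other strand for PSMB8 and on the same strand for PSMB10. Whether reads were divided between these genes was not tested.

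The balance of immune to constitutive catalytic subunits did not differ between the media beyond the spread of the libraries. The log2 ratio of PSMB8 to PSMB5 in FPKM was 0.61, 0.66 and 0.72 in shSPP1#2 medium and 0.60, 0.76 and 0.67 in shNC medium. The means, 0.66 ± 0.057 and 0.68 ± 0.079 (SD, n = 3 each), correspond to ratios of 1.58 in shSPP1#2 medium and 1.6 in shNC medium, with a difference of -0.012 (two-sided exact permutation p = 0.9, adjusted over 2 ratios p = 0.9). The immune subunit was thus the more abundant transcript of this pair in all 6 libraries. The log2 ratio of PSMB10 to PSMB7 was -1.26, -1.21 and -1.29 in shSPP1#2 medium and -1.31, -1.26 and -1.24 in shNC medium. Here the constitutive subunit was the more abundant one, by ratios of 0.419 in shSPP1#2 medium and 0.415 in shNC medium, and the difference was 0.015 (two-sided exact permutation p = 0.8, adjusted p = 0.9). The smallest p that 3 against 3 libraries allow is 0.1. The log2 fold changes of the 4 genes ranged only from -0.093 to -0.076.

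The base of the regulatory particle holds 6 ATPases. PSMC5 measured 59.1, 59.5 and 60.1 FPKM in shSPP1#2 medium and 62.5, 63.2 and 64.5 FPKM in shNC medium. The groups did not overlap, with a log2 fold change of -0.093 (-0.19 to 0.0012, edgeR adjusted p = 0.732). Exons of other genes cover 19.5% of its exonic bases. PSMC3 had a log2 fold change of -0.067 (-0.17 to 0.033, edgeR adjusted p = 0.861), which was -0.031 with the length and GC correction. The least abundant ATPase, PSMC6, measured 31.5, 29.7 and 29.98 FPKM in shSPP1#2 medium and 32.3, 28.3 and 29.3 FPKM in shNC medium, a log2 fold change of 0.0080 (-0.10 to 0.12). PSMC1, PSMC2 and PSMC4 lay between -0.021 and 0.029, and 75.8% of the exonic bases of PSMC1 are shared with another gene. The ATPase median was -0.019, but 0.0073 without shSPP1#2 replicate 3 and -0.041 without shSPP1#2 replicate 1.

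Other base subunits receive ubiquitin chains and hold the particle together. The scaffold PSMD1 measured 21.6, 22.0 and 21.8 FPKM in shSPP1#2 medium and 22.2, 22.8 and 23.5 FPKM in shNC medium. These did not overlap in FPKM but did in log2 CPM, and the log2 fold change was -0.074 (-0.17 to 0.024, edgeR adjusted p = 0.822). For the scaffold PSMD2 it was -0.030 (-0.13 to 0.073). The ubiquitin receptor PSMD4, the most abundant regulatory subunit, measured 147, 149 and 142 FPKM in shSPP1#2 medium and 142, 140.5 and 148 FPKM in shNC medium, and its log2 fold change was 0.020 (-0.073 to 0.11).

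The lid, which releases ubiquitin before degradation, had 8 genes with a median log2 fold change of -0.018, which ran from -0.036 (shNC replicate 3 left out) to -0.00034 (shNC replicate 2 left out). PSMD3 measured 47.8, 50.1 and 48.9 FPKM in shSPP1#2 medium and 51.5, 51.2 and 51.6 FPKM in shNC medium. The shNC libraries were nearly equal and lay above all shSPP1#2 libraries, with a log2 fold change of -0.077 (-0.17 to 0.016, edgeR adjusted p = 0.791). PSMD13 had a log2 fold change of -0.077 as well (-0.17 to 0.019, edgeR adjusted p = 0.800), but its groups overlapped. PSMD14, the deubiquitinase of the lid, measured 44.5, 44.5 and 43.8 FPKM in shSPP1#2 medium and 45.4, 42.1 and 41.4 FPKM in shNC medium. Its log2 fold change was 0.037 (-0.065 to 0.14, edgeR adjusted p = 0.931), the highest of the lid. PSMD8, the most abundant lid gene at a mean of 123 FPKM, had one of -0.0039 (-0.11 to 0.10), and PSMD11, the least abundant at 14.7 FPKM, one of -0.020 (-0.15 to 0.11). PSMD6, PSMD7 and PSMD12 lay between -0.027 and 0.0082.

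Activators open the core without the regulatory particle, and PSME1 and PSME2 form the one that interferon raises. PSME2 measured 117, 116 and 118 FPKM in shSPP1#2 medium and 127, 122 and 125 FPKM in shNC medium. Its groups did not overlap, and its log2 fold change was -0.087 (-0.18 to 0.0029, edgeR adjusted p = 0.739). Its partner PSME1 measured 96.9, 97.8 and 89.4 FPKM in shSPP1#2 medium and 99.8, 95.5 and 97.0 FPKM in shNC medium. These overlapped, with a log2 fold change of -0.048 (-0.15 to 0.055, edgeR adjusted p = 0.902), which was 0.00044 with the length and GC correction and 0.0015 without shSPP1#2 replicate 3. It was -0.010 (-0.11 to 0.088) for the nuclear activator PSME3 and -0.0065 (-0.10 to 0.092) for PSME4, linked to histone degradation. The inhibitor PSMF1, at a mean of 4.02 FPKM, had one of -0.021 (-0.17 to 0.13, edgeR adjusted p = 0.978).

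Assembly chaperones bind partly built particles and leave the finished one. Their median log2 fold change was 0.00080, with 4 of 7 above 0. PSMD5, PSMD9 and PSMD10, chaperones of the base, lay between 0.00080 and 0.026. PSMG1 and PSMG2, which guide the alpha ring, measured -0.0061 (-0.20 to 0.19) and 0.0054 (-0.14 to 0.15) on that scale. PSMG3 had one of -0.069 (-0.22 to 0.088, edgeR adjusted p = 0.908). Its partner PSMG4 measured 1.34, 2.12 and 2.39 FPKM in shSPP1#2 medium and 1.63, 2.84 and 2.81 FPKM in shNC medium. In FPKM shNC replicate 1 lay within the range of the shSPP1#2 libraries, and shNC replicates 2 and 3 lay above it. In log2 CPM shNC replicate 2 lay within that range too. The log2 fold change was -0.16 (-0.53 to 0.21, edgeR adjusted p = 0.910), the widest interval of the 45. It was -0.0022 without shNC replicate 3, -0.31 without shNC replicate 1 or without shSPP1#2 replicate 3, and -0.30 on log2(FPKM + 0.1). The 2 rows kept apart were PSMC3IP, at 1.58, 1.44 and 2.01 FPKM in shSPP1#2 medium and 1.82, 2.15 and 2.62 FPKM in shNC medium (log2 fold change -0.40, -0.81 to 0.011, edgeR adjusted p = 0.735), and PSME3IP1, with a log2 fold change of -0.023 (-0.12 to 0.076). The groups of PSMC3IP overlapped.

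**Figure D4:**
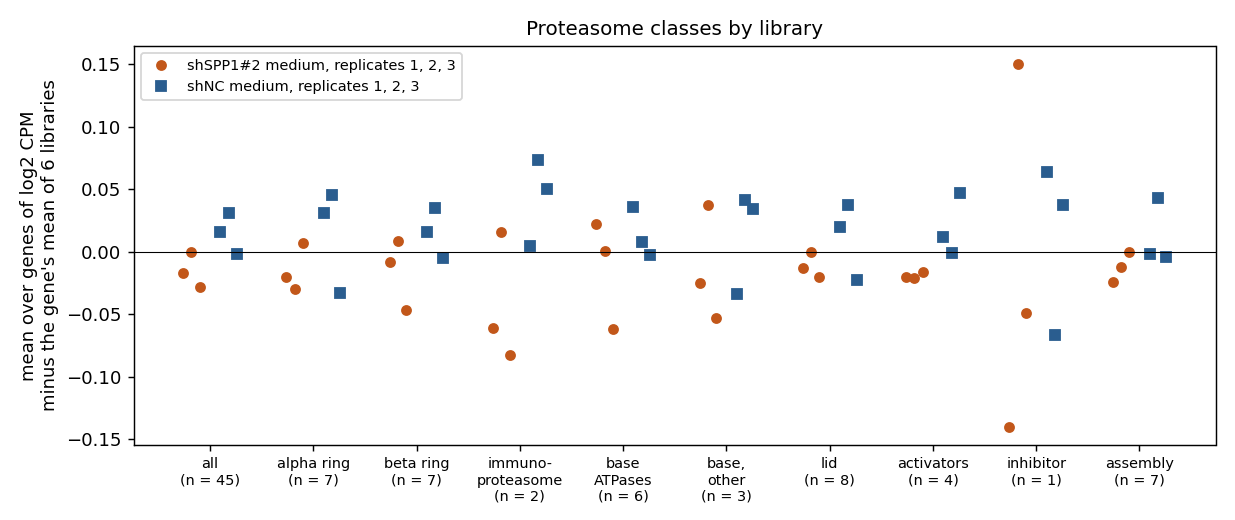
Deviation of log2 CPM from the mean of the 6 libraries, averaged over the genes of a class, for all 45 genes and for each class, with shSPP1#2 replicates (circles) left of shNC replicates (squares). The activator scores, -0.021 to -0.016 in shSPP1#2 medium and -0.0015 to 0.047 in shNC medium, did not overlap. Those of all 45 genes and of each other class shown did. Of the activators, PSME2 and PSME1 had log2 fold changes of -0.087 and -0.048, against -0.010 and -0.0065 for PSME3 and PSME4.

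The order of the libraries differed between classes. The mean deviation over all 45 genes was -0.017, -0.00067 and -0.028 in shSPP1#2 medium and 0.016, 0.031 and -0.0016 in shNC medium. shSPP1#2 replicate 2 lay just above shNC replicate 3, so on this scale, unlike in summed FPKM, the groups overlapped. The highest value was that of shNC replicate 2. The 3 catalytic genes had deviations of -0.022, -0.028 and -0.091 in shSPP1#2 medium and 0.057, 0.066 and 0.019 in shNC medium, the lowest being that of shSPP1#2 replicate 3. For the ATPases that library was the lowest too, at -0.062, whereas for the alpha ring the lowest was shNC replicate 3, at -0.033.

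Since edgeR called 0% of all tested genes, a count of 0 in a list of genes around the proteasome tells nothing of that list. Of 20 tested assembly, associated and regulatory factors 0 were called by edgeR, 10 had a log2 fold change above 0 and 10 below, and the median was -0.00023. NFE2L1, the activator of proteasome genes, measured 74.5, 68.2 and 65.6 FPKM in shSPP1#2 medium and 63.3, 63.1 and 63.4 FPKM in shNC medium. It was higher in all 3 shSPP1#2 libraries in FPKM but not in log2 CPM, with a log2 fold change of 0.10 (-0.0035 to 0.20, edgeR adjusted p = 0.740). Its relative NFE2L2 had one of 0.082 (-0.017 to 0.18, edgeR adjusted p = 0.792), and SEM1, a small lid subunit, one of -0.16 (-0.34 to 0.015, edgeR adjusted p = 0.760).

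Of 11 tested genes of ubiquitin, its activating enzymes and shuttle receptors 0 were called, with 3 above 0 and 8 below and a median of -0.031. For the activating enzyme UBA6 the log2 fold change was 0.074 (-0.022 to 0.17), but 0.0083 with the length and GC correction and 0.16 on log2(FPKM + 1). It was for the shuttle receptor UBQLN2 0.079 (-0.027 to 0.18) and for the ubiquitin-ribosomal fusion gene RPS27A -0.082 (-0.19 to 0.027), with edgeR adjusted p of 0.817 to 0.828. Of 15 tested inducers of the immunoproteasome and class I peptide supply genes 0 were called, with 9 above 0 and 6 below and a median of 0.018. The peptide-trimming enzyme ERAP1 had a log2 fold change of 0.11 (0.012 to 0.22, edgeR adjusted p = 0.673), and B2M, the light chain of class I molecules, one of -0.066 (-0.16 to 0.027, edgeR adjusted p = 0.838).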

How the data were processed

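The authors deposited estimated counts and FPKM values for 17513 genes in 6 libraries. The submitters' processing notes list HISAT2 2.0.4, Bowtie2 2.2.5, RSEM and GRCh38.p13 without their roles. Sources used here do not give the annotation, strand use or filters. The deposited estimated counts are unscaled, and in the deposited FPKM values the authors scaled them by length and library size. Stray annotation lines (20) were dropped from the FPKM values. Near-identical or overlapping genes can share divided reads: 30 pseudogenes in GENCODE v29 are named after 10 of the members.

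Estimated counts were rounded, filtered with filterByExpr (13555 genes kept), scaled by TMM and tested with edgeR 4.0.16 in R 4.3.3 (quasi-likelihood, Benjamini-Hochberg over all tested genes, called at an adjusted p below 0.05), shSPP1#2 minus shNC, all 6 libraries, no block. Median standard error was 0.048 for members. Log2 CPM used a prior count of 2. Members, classes and lists were chosen with earlier results of these data known. By rule, the named genes were the catalytic, immunoproteasome and PSME1/PSME2 genes, per class the 2 of smallest p and the most and least abundant, genes with groups that did not overlap, and 3 of smallest p per list; other members are given by value. PSMB3 and PSMD14 were described in more detail after their values were seen. Alternatives were other scalings and filters, DESeq2 1.42.0, robust edgeR, limma-voom and limma 3.58.1 on log2(FPKM + 1) and log2(FPKM + 0.1), a replicate block, length and GC trends fitted with mgcv 1.9.3 (98.63% of genes had values), and each library left out. Promoters are from RefSeq. One gene of the name pattern and some genes the rule names are not reported here.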

Additional observations from a re-analysis of the deposited data

How the results depend on the processing

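Proteasome genes called by adjusted p numbered 0 under all 13 other settings and with any 1 library left out, as did those of the 3 gene lists. Calls were as rare over all genes: 0 to 3 in 9 of the 13 settings, 18 with no low-count filter, 25 of 1891 with DESeq2, 59 with the replicate block, 43 with it and the length and GC correction, and 1 to 10 with single libraries left out, so 0 members called is near the background. The median over the 45 genes ran from -0.024 to -0.016 over the 13 settings and from -0.039 (without shNC replicate 3) to -0.019 with single libraries left out. Members with lower, non-overlapping groups numbered 3 with the length and GC correction (6.67%), near the 5.44% of all tested genes. With single libraries left out they numbered 7 (15.6%) to 12 (26.7%). The share of all tested genes was also larger there, at 9.16% to 12.7%, against 5.50% with all 6 libraries. These alternatives were chosen after seeing the data. The beta ring median was 0.0090 with the length and GC correction, with or without the replicate block, and ran from -0.070 to -0.0011 with single libraries left out; that of the assembly chaperones ran from -0.039 to 0.029. The log2 ratio of PSMB8 to PSMB5 differed by -0.049 to 0.030 and that of PSMB10 to PSMB7 by -0.0073 to 0.032 with single libraries left out. The cause of these shifts was not tested.

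Some log2 fold changes near 0 changed sign. With the length and GC correction PSMB4 measured 0.0090, PSMC6 -0.0053, PSMD8 0.032 and PSME1 0.00044, and with the replicate block added PSMB4 0.0090, PSMC6 -0.0054 and PSMD8 0.031. With total-count scaling PSMD8 measured 0.0013, on log2(FPKM + 1) PSMD8 0.00087 and PSME4 0.00059, and on log2(FPKM + 0.1) 0.00088 and 0.00066. With single libraries left out the ranges were -0.063 to 0.0086 for PSMA3, -0.086 to 0.0042 for PSMA4, -0.027 to 0.0065 for PSMB4, -0.023 to 0.059 for PSMC6, -0.066 to 0.014 for PSMD2, -0.0036 to 0.049 for PSMD4, -0.041 to 0.040 for PSMD8, -0.089 to 0.022 for PSMD11, -0.082 to 0.0015 for PSME1, -0.036 to 0.038 for PSME4, -0.11 to 0.040 for PSMF1 and -0.040 to 0.083 for PSMD10.

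Same-numbered libraries correlated in their deviations from the group means by 0.220, 0.294 and 0.0924 for replicates 1, 2 and 3 over 10635 genes. Differently numbered ones correlated by -0.273 to 0.104, the highest being shSPP1#2 replicate 3 with shNC replicate 1. shNC replicate 3 correlated best with shSPP1#2 replicate 3. The labels state no block and not all same-numbered values were above 0.1, so the main fit used no pairs. Whether same-numbered libraries were handled together was not tested. With the replicate block 0 members were called, against 59 of all tested genes. At an unadjusted p below 0.05, edgeR with that block gave 4 members, against 1461 of 13555 tested genes.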
